A study of Arabidopsis thaliana with 8 samples.

Results

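The genes described here are 10 Arabidopsis genes of the dehydration and cold response, namely the transcription factor genes DREB2A, DREB2B and DREB2C, the cold-response factor genes CBF1, CBF2 and CBF3, and the cold-regulated genes COR15A, COR47, ERD10 and KIN2. They are given by their identifiers, without a threshold on a measured value, and are 10 of the 32833 genes listed with an expression level. RNA was sequenced from root tips of 1 mm of Arabidopsis thaliana Col-0 seedlings, the wild type, after 48 h at 30 °C (high temperature, 4 libraries) or after 48 h at 22 °C (control, 4 libraries). Per the study's methods, the root tips of 50 seedlings grown on 5 plates went into each replicate. Seeds of both groups had been kept in the dark for 2 days at 4 °C and grown for 5 days at 22 °C under 16 h of light and 8 h of darkness on medium with 1% sucrose. The study asked how high temperature changes root hair development. For these genes the comparison of the 2 temperatures gives transcript differences at 1 time point and does not measure development.

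All 6 transcription factors carry an AP2/ERF domain and bind the dehydration-responsive element (DRE, also called C-repeat), a short promoter sequence with the core A/GCCGAC. The CBF proteins, also named DREB1, are made within minutes to hours of cold and switch on cold-regulated genes, many of which encode hydrophilic proteins that protect membranes and enzymes when cells lose water. The DREB2 proteins bind the same element, and DREB2A is known for drought, salt and heat, where heat shock factors of the HSFA1 class act on its gene. In unstressed plants the DREB2A protein is degraded, so its transcript and its activity need not change together.

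The DNA before these genes is shown first, because the DREB and CBF factors bind the DRE and heat shock factors bind the heat shock element. The 250 bases before each annotated gene start were taken from the TAIR10.1 genome, 5′ to 3′ on the strand of the gene. Capitals mark a DRE, searched as ACCGAC or GCCGAC on both strands, or a heat shock element, searched as GAANNTTCNNGAA or TTCNNGAANNTTC. The windows of the 3 DREB2 genes and of COR15A lie at chr5:1601955-1602204 (+), chr3:3455105-3455354 (+), chr2:16850495-16850744 (-) and chr2:17712331-17712580 (-).
DREB2A: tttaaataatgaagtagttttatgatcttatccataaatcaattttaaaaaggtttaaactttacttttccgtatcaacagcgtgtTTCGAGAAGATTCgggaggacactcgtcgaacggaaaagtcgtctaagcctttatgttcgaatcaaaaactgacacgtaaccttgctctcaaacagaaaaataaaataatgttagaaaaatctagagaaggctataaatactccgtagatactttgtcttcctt
DREB2B: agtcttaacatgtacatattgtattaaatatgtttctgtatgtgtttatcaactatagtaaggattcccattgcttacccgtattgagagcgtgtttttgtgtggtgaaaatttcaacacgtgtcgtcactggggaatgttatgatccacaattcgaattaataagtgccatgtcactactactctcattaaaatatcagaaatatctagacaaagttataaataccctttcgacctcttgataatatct
DREB2C: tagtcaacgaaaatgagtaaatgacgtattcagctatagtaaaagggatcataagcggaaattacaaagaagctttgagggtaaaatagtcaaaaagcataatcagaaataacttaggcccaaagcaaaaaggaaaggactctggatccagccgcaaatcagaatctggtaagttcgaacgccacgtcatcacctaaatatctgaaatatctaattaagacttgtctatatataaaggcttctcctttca
COR15A: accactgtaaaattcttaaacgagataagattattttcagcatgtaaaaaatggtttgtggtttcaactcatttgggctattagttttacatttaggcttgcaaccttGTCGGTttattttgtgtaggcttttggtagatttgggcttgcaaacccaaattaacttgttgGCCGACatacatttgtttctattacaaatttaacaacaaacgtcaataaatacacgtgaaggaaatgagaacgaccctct
DREB2A held a heat shock element from position -164 to -152 relative to the gene start, and no other gene of the 10 held one there. Such an element was found in 0.386% of the 27443 windows of this length in the genome. COR15A held 2 DREs, and no other gene of the 10 held one in these 250 bases, against 7.09% of all windows.

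Annotated gene starts differ in how far they lie from the protein, so the 1000 bases before each coding start were searched as well. There 23.1% of all 27443 windows held a DRE. All 4 cold-regulated genes did, COR15A and ERD10 with 3 matches each and COR47 and KIN2 with 1 each. Of the 6 factor genes, DREB2C held 1 match and the other 5 held none. The sites of COR47, ERD10, KIN2 and DREB2C are printed here with 9 bases on either side, and that of KIN1, the neighbour and close copy of KIN2, for comparison. They lie at chr1:7085919-7085942 (-), chr1:7089372-7089395 (-), chr5:5211771-5211794 (+), chr2:16851131-16851154 (-) and chr5:5209804-5209827 (+).
COR47: tattcatctACCGACttcaagaaa
ERD10: tattcatccACCGACcgaccgacg
KIN2: taaaaagctACCGACataaggcaa
DREB2C: gcgttactaGTCGGCttaaatcca
KIN1: taaatagctACCGACataaggcaa
The 3 matches of ERD10 overlap and begin 279, 275 and 271 bases before its coding start, inside the annotated gene. Only the first of them is in capitals. Those of COR47 and KIN2 begin 269 and 186 bases before theirs, inside the annotated genes. A match of letters is a description and says nothing on whether a factor was bound.

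Of the 10 genes, 7 were in the table of normalized values, which are read counts divided by a scaling factor per library, and all 7 passed the filter of a mean normalized value of at least 1. To be called, a gene needed an adjusted p under 0.05 in limma (Benjamini-Hochberg over all 21739 tested genes) and a log2 fold change of 0.58 or more in either direction. By this rule 4 of the 7 were higher, namely DREB2A, DREB2B, DREB2C and KIN2, 0 were lower and 3 were not called. No member was called lower by edgeR or DESeq2 on the recovered reads, nor by limma at an unadjusted p under 0.05 with the same fold. Over all tested genes 20.0% were called higher and 17.5% lower, that is 4344 and 3797 genes, and after rescaling all libraries to 1 total 5967 were higher and 2595 lower. The median log2 fold change of the 7 was 0.93, against 0.01 over all genes. In 6 of the 7 the libraries of the 2 temperatures did not overlap, with the 30 °C libraries above those of the control, which held for 32.8% of all genes in that direction. Leaving out any 1 library left the count at 4 higher and 0 lower.

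The libraries held 38216649 to 41833843 reads in genes at 30 °C and 38396646 to 40750937 in the control. Normalized values summed to 0.868 times as much at 30 °C as in the control, and rescaling all libraries to 1 total shifted the median change over all genes to 0.22 on the log2 scale. All 8 root tip markers were measured, with sums of 12808 to 13620 at 30 °C and 12579 to 13355 in the control, and 2 of them were higher and 0 lower. Of 8 markers of differentiated root cells 2 were higher and 2 lower, with sums of 891 to 1313 at 30 °C and 1137 to 1923 in the control. The 2 lower ones were the root hair genes COBL9, at 0 to 17.2 against 395 to 938, and EXPA7, at 0 to 10.5 against 42.9 to 98.0. COBL9 thus made up a large part of the control sums. The 2 higher ones were MYB36, averaging 190 against 128 with groups that overlapped, and IRX3, averaging 405 against 250. Of 6 shoot and photosynthetic markers 1 was higher and 5 were lower, with sums of 296 to 404 at 30 °C and 484 to 511 in the control. The higher one, RCA, averaged 304 at 30 °C and 170 in the control and made up most of the 30 °C sum. CAB1 averaged 14.2 against 106, LHCA1 28.1 against 157, PSAD1 1.19 against 58.7 and LHCB1.1 0.454 against 6.37. RBCS1A was at 0 in every 30 °C library and had 13 reads in the control, with groups that overlapped. Their part in the results below was not tested. In these bulk samples fewer cells of a type and less RNA per cell cannot be told apart.

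All 3 DREB2 factor genes rose at 30 °C, and DREB2B and DREB2C, which were lower than DREB2A in the control, rose more than DREB2A. DREB2A (AT5G05410, chr5:1602205-1604112, + strand), the best known of the family, had normalized values of 743, 682, 747 and 785 at 30 °C, against 325, 375, 404 and 460 in the control. Every 30 °C library lay above every control library. The means were 739 ± 42.8 at 30 °C and 391 ± 56.4 in the control (SD, n = 4 each), a 1.89-fold difference. On the log2 scale the change was 0.93 with a standard error of 0.09 and a limma adjusted p of 1.8e-07. Of all tested genes, 14.9% had a larger log2 fold change. A gene on the opposite strand, AT5G05420, shares 73 bp with DREB2A and averaged 1.65 at 30 °C and 0 in the control.

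DREB2B (AT3G11020, chr3:3455355-3457342, + strand), the closest relative of DREB2A, was almost silent at 22 °C. Its normalized values were 115, 86.8, 82.0 and 99.7 at 30 °C, against 7.24, 2.21, 1.07 and 4.19 in the control. These values came from 411 reads at 30 °C and 14 reads in the control, a ratio of 25.8 after scaling for depth, with a counting interval at 95% of 15.2 to 47.6. Means were 96.0 ± 15.0 at 30 °C and 3.67 ± 2.70 in the control (SD, n = 4 each). The log2 fold change was 4.76 with a standard error of 0.42 and a limma adjusted p of 6.2e-08, and only 0.603% of the tested genes had a larger one. It was 4.97 and 4.55 with pseudocounts of 0.1 and 1 in place of 0.5, and 3.40 with FPKM values and a pseudocount of 0.1. DREB2B shares 1086 bp with TBL32 (AT3G11030) on the opposite strand. The libraries were directional, but the strand setting of the counting is not given in the sources used here. Reads of the shared bases therefore cannot be told apart. TBL32 averaged 1392 ± 38.0 at 30 °C and 2069 ± 113 in the control (SD, n = 4 each). Its log2 fold change was -0.57 with a limma adjusted p of 1.5e-08, under the fold threshold and opposite in sign to that of DREB2B.

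DREB2C (AT2G40340, chr2:16848160-16850494, - strand), whose protein can activate the heat shock factor gene HSFA3, was higher in every 30 °C library. Its normalized values were 1164, 1050.0, 1143 and 1161 at 30 °C, against 120, 117, 61.8 and 121 in the control. The 30 °C libraries were close together, and control replicate 3 lay well under the other control libraries. DREB2C averaged 1130 ± 53.8 at 30 °C and 105 ± 28.9 in the control (SD, n = 4 each), a 10.7-fold difference with a log2 fold change of 3.47, a standard error of 0.17 and a limma adjusted p of 5.3e-11. Without control replicate 3 the log2 fold change was 3.23. Its next neighbour on the chromosome, AT2G40350, another gene of the DREB2 group, shares a run of 76 identical coding bases with it and had 11 reads at 30 °C and 2 reads in the control.

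**Figure D1:**
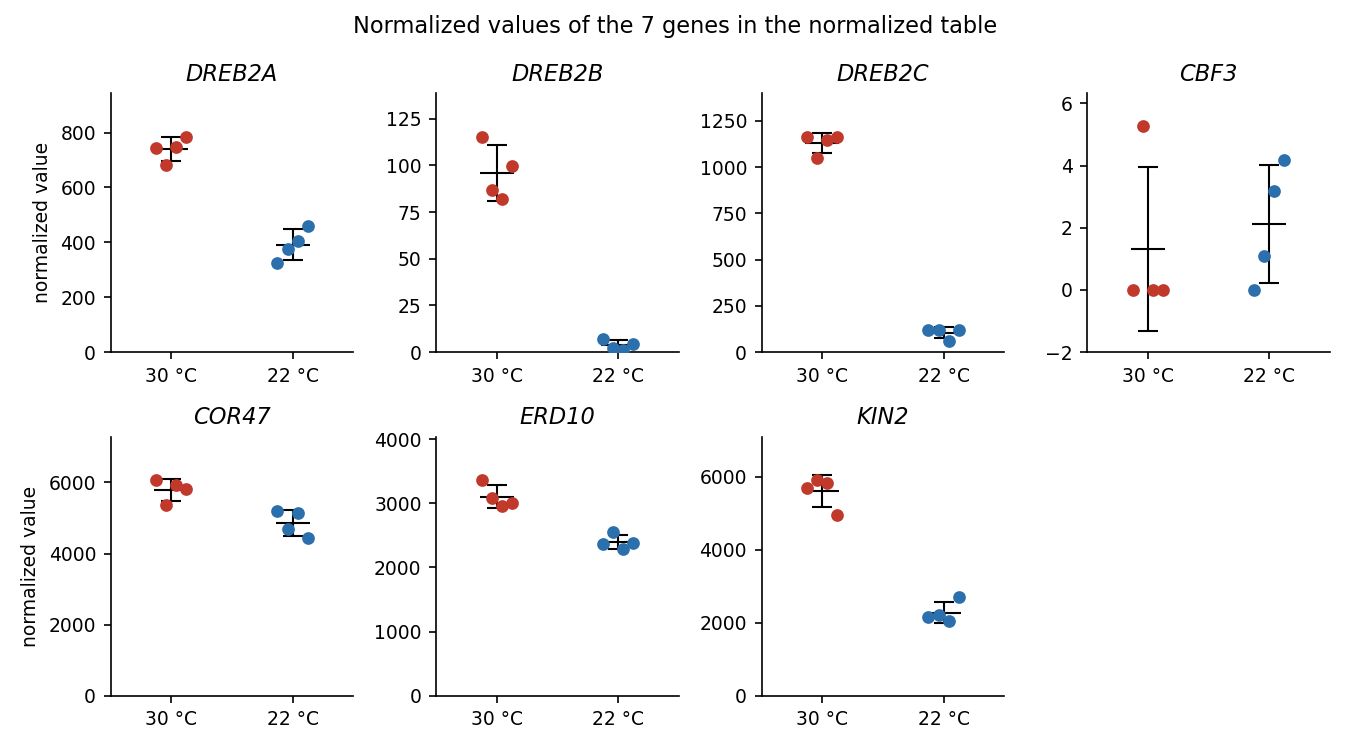
Normalized values (linear axes, no unit) of the 7 genes present in the normalized table, with 1 point per library at 30 °C (red, left) and 22 °C (blue, right), and bars for the mean ± SD of 4 libraries. DREB2A, DREB2B, DREB2C, COR47, ERD10 and KIN2 show groups that do not overlap, and CBF3 has 1 library at 5.26 and the other 30 °C libraries at 0.

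On normalized values with a pseudocount of 0.5, the 3 DREB2 responses also differed from each other, as the ratio of each pair within a library shows. The log2 ratio of DREB2A to DREB2B was 2.95 ± 0.20 at 30 °C and 6.78 ± 1.09 in the control (SD, n = 4 each), a change of -3.83. That of DREB2A to DREB2C was -0.61 ± 0.04 at 30 °C and 1.93 ± 0.55 in the control, a change of -2.54. The ratio of DREB2B to DREB2C was -3.56 ± 0.19 at 30 °C and -4.85 ± 0.68 in the control, a change of 1.29. Each gave p = 0.0286 in an exact two-sided permutation test over 70 arrangements, the smallest that 4 against 4 libraries can give, and an adjusted p of 0.0343 over the 6 pairs compared within classes. With 3 libraries in a group the smallest p is 0.0571, so that no such test can pass. DREB2B had only 14 reads in the control. With FPKM values and a pseudocount of 0.1 its log2 fold change was 3.40, close to 3.36 for DREB2C, and the pair was not tested in that setting.

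Levels of different genes were compared in FPKM, which here is the normalized value divided by the summed exon length of the gene, up to a constant. FPKM thus carries the same scaling between libraries as the normalized values. Summed over the 3 genes, DREB2 transcripts reached 25.1 ± 1.34 FPKM at 30 °C and 7.19 ± 0.87 FPKM in the control (SD, n = 4 each). DREB2A made up 45.1 ± 0.81% of that sum at 30 °C and 83.2 ± 5.11% in the control. For DREB2C the share was 48.7 ± 0.55% at 30 °C and 15.9 ± 4.55% in the control. DREB2B contributed 6.18 ± 0.80% at 30 °C and 0.85 ± 0.69% in the control. At 30 °C the library ranges of DREB2C, 11.4 to 12.6 FPKM, and DREB2A, 10.5 to 12.0 FPKM, overlapped, while in the control most of the sum was DREB2A. These shares depend on the length used. Exons summed to 2335 bp for DREB2C, with 6 annotated transcripts, and 1651 bp for DREB2A, against coding lengths of 1047 and 1008 bp. The coding sequence of DREB2A is 67.9% identical to that of DREB2B and 59.6% to that of DREB2C, with longest shared runs of 26 and 24 bases.

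**Figure D2:**
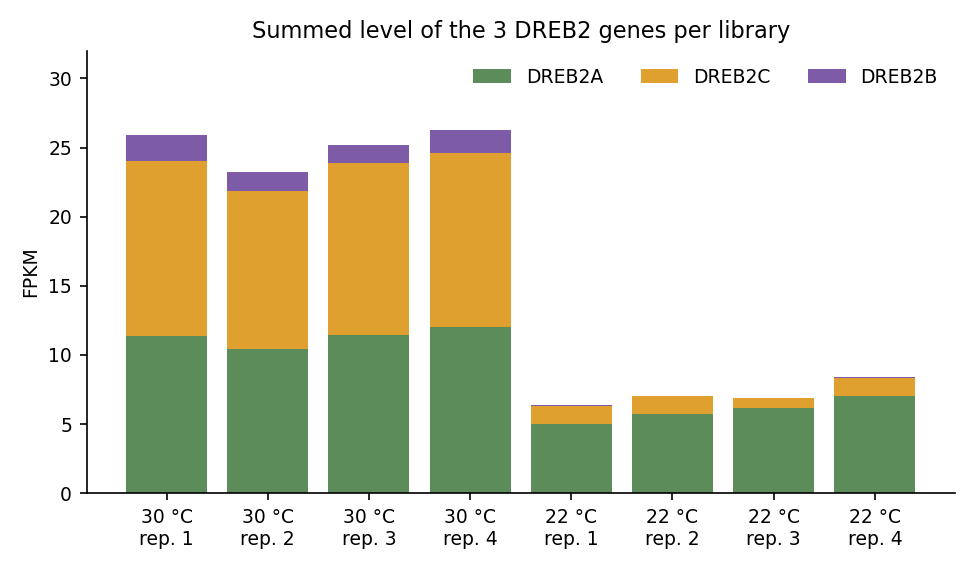
Summed FPKM of the 3 DREB2 genes in each library, 30 °C on the left and 22 °C on the right, with each bar divided into DREB2A (green), DREB2C (orange) and DREB2B (purple). The bars reach 23.3 to 26.2 FPKM at 30 °C and 6.40 to 8.43 FPKM in the control, and the orange part takes 48.0 to 49.2% of each 30 °C bar.

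Transcripts of the 3 CBF factors were at or near 0 reads at both temperatures. These genes stand in tandem on chromosome 4, between positions 13015250 and 13022996 on the - strand, and their coding sequences are 85.6 to 87.1% identical. CBF1 (AT4G25490) was listed at 0 FPKM in all 8 libraries. CBF2 (AT4G25470) was listed at 0 in 7 libraries and at 0.0225 FPKM in replicate 2 at 30 °C, which corresponds to 1 read. CBF3 (AT4G25480) had normalized values of 0, 5.26, 0 and 0 at 30 °C, against 0, 1.11, 3.20 and 4.19 in the control. These were 6 reads at 30 °C, all in replicate 2, and 8 reads in the control, a ratio of 0.659 after scaling, with a counting interval at 95% of 0.188 to 2.16. The log2 fold change of CBF3 was -1.07 with a standard error of 1.01 and a limma adjusted p of 0.3557, and it was -1.95 without replicate 2 of 30 °C. A difference between temperatures was therefore not detectable at this depth. A group without any read still allows 3 reads over its 4 libraries, a mean normalized value of 0.700 at 30 °C and 0.797 in the control, and this covers counting error only.

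The cold-regulated genes held both the highest levels of the 10 genes and a gene without any read. KIN2 (AT5G15970, chr5:5211719-5212743, + strand), which encodes a small hydrophilic protein induced by cold and abscisic acid, rose the most. It had normalized values of 5700, 5911, 5837 and 4964 at 30 °C, against 2153, 2205, 2050 and 2698 in the control. The lowest 30 °C library was still well above the highest control library. Means were 5603 ± 435 at 30 °C and 2276 ± 288 in the control (SD, n = 4 each), a 2.46-fold difference with a log2 fold change of 1.30, a standard error of 0.07 and a limma adjusted p of 2.8e-10. Of all tested genes, 9.80% had a larger log2 fold change. KIN2 carried the 1 DRE printed above.

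COR47 and ERD10, both acidic dehydrins that protect proteins and membranes in drying cells, are neighbours on chromosome 1 with 1029 bp between them and coding sequences that are 76.9% identical. COR47 (AT1G20440, chr1:7084409-7086873, - strand) had normalized values of 6066, 5353, 5940 and 5804 at 30 °C, against 5200, 4681, 5140 and 4435 in the control. For ERD10 (AT1G20450, chr1:7087903-7089606, - strand) the values were 3362, 3080, 2965 and 3009 at 30 °C, against 2360, 2546, 2288 and 2374 in the control. In both genes every 30 °C library lay above every control library, by a small margin. COR47 averaged 5790 ± 311 at 30 °C and 4864 ± 368 in the control (SD, n = 4 each), with a log2 fold change of 0.25 and a limma adjusted p of 4.0e-04. ERD10 averaged 3104 ± 178 at 30 °C and 2392 ± 109 in the control, with a log2 fold change of 0.38 and a limma adjusted p of 2.1e-06. Both passed the p threshold and stayed under the fold of 0.58, so neither was called. By the p threshold alone, 6 of the 7 genes would be higher at 30 °C, against 35.9% of all tested genes. In terms of position among all tested genes, 36.7% had a larger log2 fold change than COR47 and 31.1% than ERD10.

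KIN2 responded more than its 2 dehydrin companions. Within libraries, the log2 ratio of ERD10 to KIN2 was -0.85 ± 0.13 at 30 °C and 0.08 ± 0.18 in the control (SD, n = 4 each), a change of -0.93. The log2 ratio of COR47 to KIN2 changed by -1.05, and its 30 °C libraries, at -0.14 to 0.23, lay below all control libraries, at 0.72 to 1.33. Each pair gave p = 0.0286 in the exact two-sided permutation test, adjusted p = 0.0343. The ratio of COR47 to ERD10 was 0.90 ± 0.09 at 30 °C and 1.02 ± 0.15 in the control, with p = 0.2571 in the same exact test, so the neighbours were not told apart by their response.

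COR15A (AT2G42540, chr2:17710441-17712330, - strand), which encodes a chloroplast protein that protects membranes during freezing, was listed at 0 in all 8 libraries. It is the gene with 2 DREs in the window printed above. Its neighbour COR15B, 7 bp away and 82.6% identical in its coding sequence, had 3 reads in replicate 4 at 30 °C and 0 reads in each of the other libraries. How reads that fit both copies were counted is not given in the sources used here.

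Per length, the order at 30 °C was KIN2 at 189 ± 14.7 FPKM, COR47 at 63.2 ± 3.39, ERD10 at 48.4 ± 2.78, DREB2C at 12.2 ± 0.58, DREB2A at 11.3 ± 0.66 and DREB2B at 1.56 ± 0.24 FPKM (SD, n = 4), followed by the CBF genes and COR15A. In the control it was KIN2 at 76.9 ± 9.73 FPKM, COR47 at 53.1 ± 4.02, ERD10 at 37.3 ± 1.70, DREB2A at 5.99 ± 0.86, DREB2C at 1.14 ± 0.31 and DREB2B at 0.0596 ± 0.0438 FPKM. At 30 °C only DREB2C and DREB2A overlapped among these neighbours in the order of the first 6. In the control none of the first 6 overlapped, and DREB2B overlapped CBF3. Per length, DREB2C thus stood beside DREB2A at 30 °C and below it in the control. In normalized values, which are not divided by length, it was above DREB2A in every 30 °C library.

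**Figure D3:**
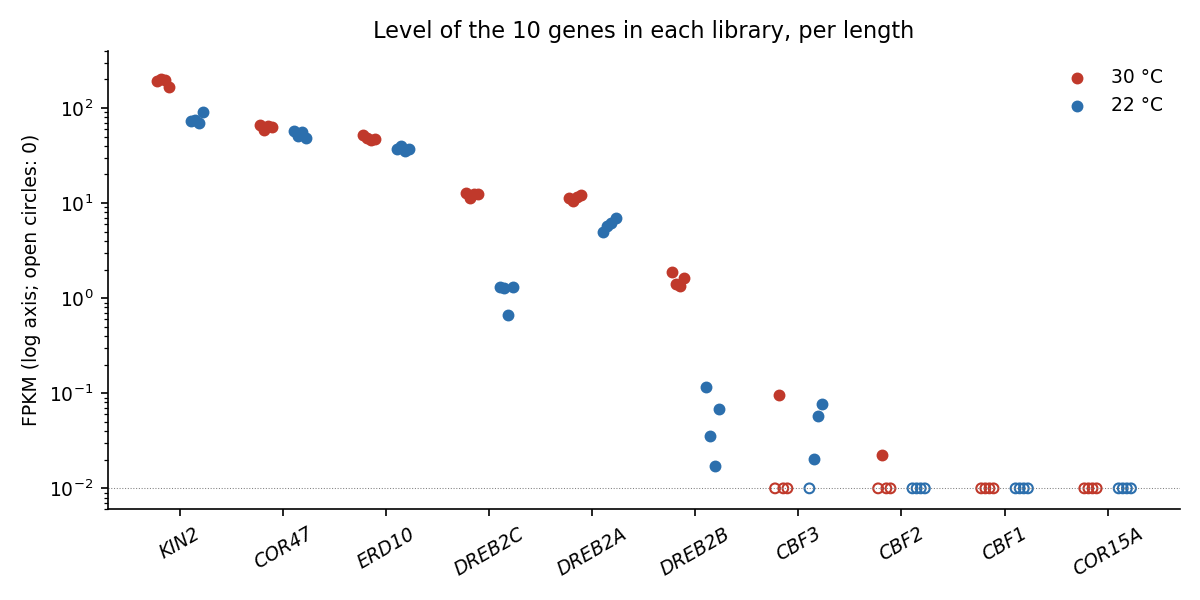
FPKM of the 10 genes on a log axis, with 1 point per library at 30 °C (red, left of each pair) and 22 °C (blue, right), genes ordered by their mean at 30 °C and open circles on the dotted line for libraries at 0. KIN2, COR47 and ERD10 lie above 35 FPKM in every library, and CBF1 and COR15A are at 0 in all 8.

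Other genes of the pathway were counted from lists of known members, and no list was tested as a set. Each count below stands beside the 20.0% called higher and 17.5% called lower over all tested genes. Of 8 further factors of the CBF and DREB2 groups, 4 were listed at 0 in every library, 2 could be tested, 1 was higher and 0 were lower. The higher one was DREB19 (AT2G38340), with 46.9, 41.2, 35.3 and 41.6 at 30 °C, against 11.4, 3.32, 8.52 and 8.37 in the control. Its log2 fold change was 2.42 (limma adjusted p = 1.9e-05), and the groups did not overlap.

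Among 17 regulators of the CBF genes, 16 were tested, 4 were higher and 1 was lower, with a median log2 fold change of 0.07. Over all tested genes 20.0% were higher and 17.5% lower. ZAT12, a zinc-finger protein that lowers CBF transcripts, averaged 1072 ± 91.3 at 30 °C and 170 ± 25.6 in the control (SD, n = 4 each), with a log2 fold change of 2.67. OST1, a kinase of abscisic acid signalling that acts on ICE1, had a log2 fold change of 1.13, and CAMTA3, a calmodulin-binding activator of CBF2, one of 0.86. ICE2, a bHLH activator, averaged 109 ± 22.0 at 30 °C and 62.6 ± 16.4 in the control, with a log2 fold change of 0.81 and groups that overlapped. The lower gene, named after its values were seen, was MPK6, a kinase that phosphorylates ICE1, with a log2 fold change of -0.65. It was not called lower after quantile normalization or total-sum rescaling. ICE1, the activator of CBF3, was at 561 ± 9.04 at 30 °C and 555 ± 43.8 in the control, with a log2 fold change of 0.02 and a limma adjusted p of 0.8017.

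Of 15 regulators and partners of DREB2A, 13 were tested, 2 were higher and 1 was lower, with a median log2 fold change of 0.13. The shares over all tested genes were 20.0% higher and 17.5% lower. RCD1, a protein that binds DREB2A and takes part in its breakdown, averaged 31190 ± 801 at 30 °C and 8323 ± 169 in the control (SD, n = 4 each), a 3.75-fold difference with a log2 fold change of 1.91. DRIP1, a ubiquitin ligase for DREB2A, had a log2 fold change of 0.60 and was called in 6 of 8 fits that left out 1 library. HSFA1E, of the class that acts on the DREB2A gene in heat, fell by 0.64 on the log2 scale, and by 0.44 after total-sum rescaling, where it was not called. Its relative HSFA1B averaged 476 ± 36.0 at 30 °C and 321 ± 31.9 in the control, with a log2 fold change of 0.57 just under the threshold. NF-YC10, which helps DREB2A to activate HSFA3, averaged 1004 ± 31.3 at 30 °C and 842 ± 10.8 in the control, a log2 fold change of 0.25. The remaining genes that were not called went both ways. DRIP2, HSFA1A and MED25 had log2 fold changes of 0.28, 0.39 and 0.13. BPM1, BPM2, BPM4, NF-YA2 and HSFA1D had -0.43, -0.19, -0.18, -0.25 and -0.18.

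Of 6 heat and drought genes linked to DREB2A, 4 were tested, 3 were higher and 0 were lower, with a median log2 fold change of 2.92. At an unadjusted p under 0.05 and the same fold the lower count was 1, the late embryogenesis gene LEA7, with 15 reads at 30 °C and 38 reads in the control. HSFA3, a heat shock factor gene activated by DREB2A and DREB2C, had 144, 137, 126 and 135 at 30 °C, against 27.9, 32.1, 17.1 and 33.5 in the control, a log2 fold change of 2.32 with a limma adjusted p of 1.1e-07. GOLS1, which makes galactinol for the raffinose family of sugars, had 1466, 1264, 959 and 812 at 30 °C, against 6.20, 11.1, 16.0 and 12.6 in the control. This was a 98.3-fold difference of the means and a log2 fold change of 6.59 (limma adjusted p = 3.4e-12). LEA18 was at 44 reads at 30 °C and 2 reads in the control, a ratio of 19.3 with a counting interval at 95% of 5.04 to 165. For heat shock elements 16 genes were searched, these 10 and 6 related ones, KIN1, COR15B, RD29A, LTI30, GOLS3 and GOLS1. The 6 were picked by hand, and HSFA3 and LEA18 were not searched. Of the 16, GOLS1 was the only one besides DREB2A with such an element in the 1000 bases before its coding start. Of all windows 2.02% held one. Both sites are shown in capitals, at chr2:19370558-19370586 (-) for GOLS1 and chr5:1602033-1602061 (+) for DREB2A.
GOLS1: gtcccactTTCCAGAACTTTCacggtttc
DREB2A: cagcgtgtTTCGAGAAGATTCgggaggac

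The other cold-regulated genes and dehydrins moved in both directions. Of 19, 15 were tested, 8 were higher and 4 were lower, with a median log2 fold change of 0.93. The largest gain was that of ZAT10, a zinc-finger repressor induced by several stresses, with 548, 451, 386 and 416 at 30 °C, against 27.9, 39.8, 45.8 and 25.1 in the control, a log2 fold change of 3.71. KIN1, the tandem partner of KIN2, averaged 158 ± 41.8 at 30 °C and 20.6 ± 7.88 in the control (SD, n = 4 each), with a log2 fold change of 2.95 (limma adjusted p = 1e-07). KIN1 made up 2.47 ± 0.57% of the summed KIN1 and KIN2 FPKM at 30 °C and 0.81 ± 0.31% in the control. The 2 coding sequences are 95% identical with a shared run of 58 bases, so their split is uncertain.

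RD29A, a classical DRE-driven gene with 4 DREs in the 1000 bases before its coding start, had 72 reads at 30 °C and 10 reads in the control, or 11.3, 17.5, 22.9 and 15.5 at 30 °C, against 0, 5.53, 2.13 and 3.14 in the control. Its log2 fold change was 2.86 (limma adjusted p = 0.0011), and 2.12 without control replicate 1. GOLS3, the galactinol synthase gene known from the CBF response, carried 3 DREs in its window and was at 0 in every 30 °C library, against 4.13, 4.42, 2.13 and 8.37 in the control. With 0 reads at 30 °C and 18 reads in the control it was at least 6.83-fold lower, taking 3 reads over the group as the limit. The other called genes of the list were LTI30, RCI2A, LEA14, COR27 and RAP2.1, higher by log2 fold changes of 0.93 to 2.77, and COR413PM1, COR413IM1 and COR413IM2, lower with log2 fold changes of -1.12, -1.31 and -1.16. They were named after their values were seen. RAB18 and RD29B were listed at 0 in every library.

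**Figure D4:**
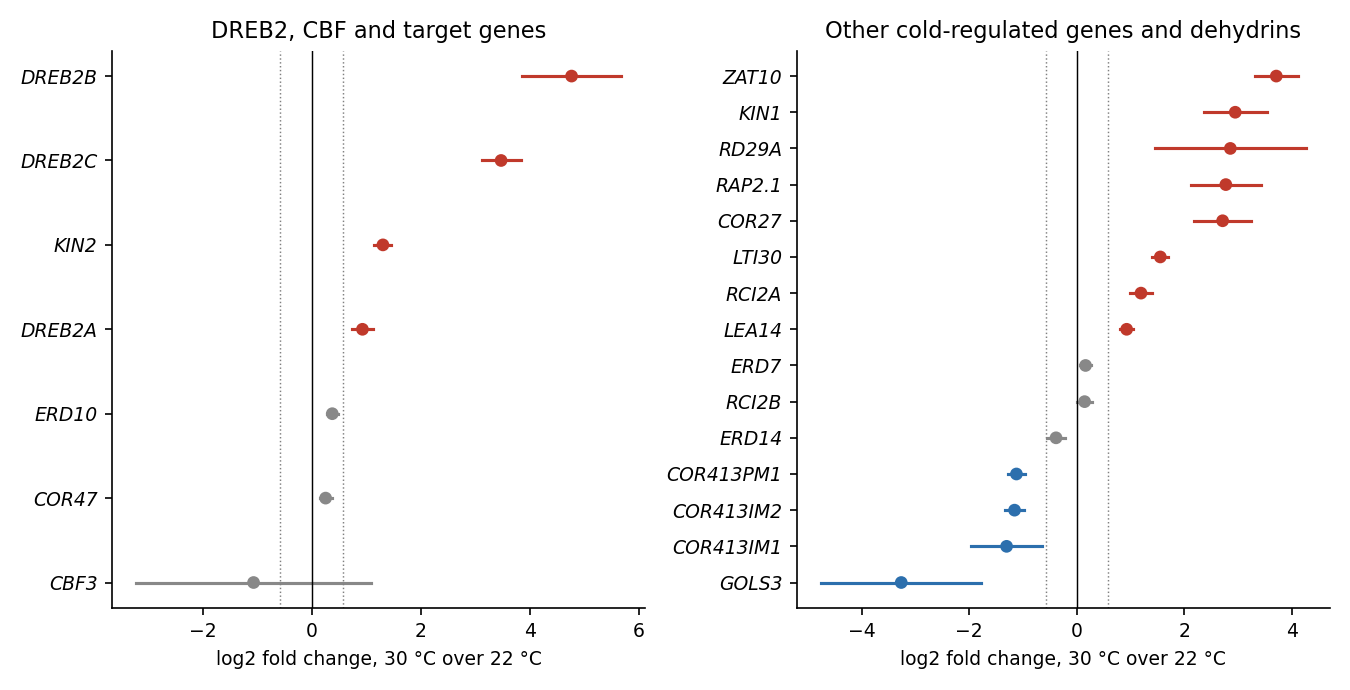
Log2 fold change of 30 °C over 22 °C with its 95% interval (limma) for the 7 tested genes of the group (left) and 15 other cold-regulated genes and dehydrins (right). Red points were called higher, blue lower and grey not called, and dotted lines stand at a log2 fold change of 0.58 in either direction. DREB2B has the highest value on the left (4.76) and ZAT10 on the right (3.71), the interval of CBF3 spans 0 (-3.22 to 1.08), and the place of GOLS3, at 0 in every 30 °C library, depends on the pseudocount.

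Of the 4 cold shock domain proteins, RNA chaperones known from cold acclimation, 0 were higher and 1 was lower by limma, and 0 were higher at an unadjusted p under 0.05 with the same fold or by edgeR or DESeq2. CSP2 averaged 13728 ± 904 at 30 °C and 33632 ± 982 in the control (SD, n = 4 each), with a log2 fold change of -1.29 with a limma adjusted p of 1.1e-12. The other 3 had log2 fold changes of -0.32, 0.22 and 0.25.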

How the data were processed

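Poly(A) RNA libraries were directional, per the labels. The authors deposited a normalized signal for 23632 genes, made by dividing each gene's reads by a size factor of DESeq2, and FPKM values for 32833 genes. HISAT2, DESeq2 and the TAIR10 build are named in the submitters' processing notes, without tool versions. The study's methods state fewer replicates than the labels, and all 8 labelled libraries were used. The p-values measure the spread between these pools.

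From the deposited values the worth of 1 read was found in each library, and 100% of values were whole reads within 0.01, which allowed count tests as alternatives. The main test was limma 3.58.1 in R 4.3.3, with a trend, on log2(normalized value + 0.5) of 21739 genes with a mean of at least 1. edgeR 4.0.16 and DESeq2 1.42.0 were run on recovered reads, and exact permutation tests in scipy 1.17.1. A planned search for genes of like pattern was left out, since the 8 libraries form 2 temperature clusters. The fits were tested on simulated data. Members and lists were chosen with earlier results of these data known. Beyond the members, up to 4 called genes per list with the largest absolute log2 fold change were named. Of 94 list entries 3 were dropped because their names could not be matched. Sequences and coordinates are from TAIR10.1 of RefSeq, and 99.34% of 21888 genes had exon lengths that matched the ratio of the deposited tables within 0.1%. Counting intervals and the limits for groups without reads cover counting error only, while the limma intervals measure the spread between libraries.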

Additional observations from a re-analysis of the deposited data

Results flagged for a closer look

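Groups of 4 libraries were checked for a library far from the others, over 46 groups, of which chance would mark about 1 in 20. There were 2 such values. DREB2C had a normalized value of 61.8 in control replicate 3, against 117 to 121 in the other control libraries, a gap of 0.929 of the whole range, above Dixon's critical value. CBF3 had a normalized value of 5.26 in replicate 2 at 30 °C, against 0 in the other libraries at 30 °C. The cell type markers were not part of this check. Among them, CASP1 was at 94.3 in replicate 3 at 30 °C, against 0.877 to 7.51 in the other 30 °C libraries. EXPA7 was at 10.5 in that replicate and at 0 in the other 30 °C libraries.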

How the results depend on the processing

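Of the 7 tested genes of the group, none changed sign under the alternatives run, and the 4 calls of DREB2A, DREB2B, DREB2C and KIN2 held in all 19. The 19 are not independent. Dropping the fold threshold cannot lose a call, and other filters on the mean or a replicate block leave the log2 fold changes as they are. Without the fold threshold, 7798 genes were higher and 7657 lower, COR47 (0.25) and ERD10 (0.38) were called, and the counts were 2 lower for the regulators of CBF genes, 7 higher and 6 lower for those of DREB2A, and 2 higher and 2 lower for the cold shock domain proteins. Quantile normalization gave 0 lower regulators of CBF genes, 1 higher regulator of DREB2A and 1 lower heat and drought gene, with ICE2 at 0.58 and DRIP1 at 0.52, neither called. Total-sum rescaling gave 0 lower regulators of CBF genes and 4 higher and 0 lower regulators of DREB2A, with HSFA1E at -0.44, and left ERD10 at 0.58, just under the threshold. A pseudocount of 1 gave 1 lower heat and drought gene. FPKM values with a pseudocount of 0.1 gave smaller log2 fold changes for low genes, 3.40 for DREB2B, 1.05 for RD29A, 2.03 for LEA18 and -0.80 for GOLS3. In these genes FPKM is the normalized value divided by a constant, so this setting differed from the main fit only in the pseudocount. That pseudocount was above their control means of 0.0596, 0.0257, 0.0210 and 0.0781 FPKM. The cause of the other moves was not tested.

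Leaving out 1 library in turn gave 1 to 3 higher regulators of DREB2A, with DRIP1 at 0.55 without control replicate 1 and 0.58 without replicate 1 of 30 °C, both not called. It gave 0 to 1 lower heat and drought genes, with 1 without control replicate 3 or replicate 1 of 30 °C. It also left 0 of 5 pair differences past the threshold, by construction of the exact test with 3 libraries in a group. Same-numbered libraries of the temperatures had correlations of 0.00966, 0.00755, 0.0771 and 0.00308 over 18851 genes, so the numbers were not taken to pair them. A replicate block gave 4300 genes higher and 3762 lower, left DREB2A at 0.93 and gave 1 lower heat and drought gene, LEA7. The block changed no other call among the results given. Depth limits what can be said of CBF1, CBF2, CBF3 and COR15A, which had at most 8 reads over a group.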
